A study of Mus musculus with 9 samples.

Results

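The p53 target genes are a list of 33 mouse genes that are known to be switched on by the transcription factor p53 or to steer it, among 27179 genes in the deposited count table. The rule picks them by gene symbol, although the list was drawn up with earlier results of these data known, and all 33 were found in the table. RNA was sequenced from HPC7, a mouse blood progenitor line that depends on stem cell factor, in 9 libraries that form 3 groups of 3. The control cells carried an MSCV-IRES-GFP retrovirus with no inserted gene. The other cells carried the same vector with the cDNA of wild-type Snai1, or of a mutant Snai1 whose phenylalanine at residue 5 is replaced by alanine, a change that impairs binding of the histone demethylase Lsd1. All groups grew in RPMI with 10% fetal calf serum, 100 ng/ml stem cell factor and 0.05 mM 2-mercaptoethanol, and GFP-positive cells were sorted 1 week after transduction. The model is therefore a sorted pool of 1 cell line in which the vector's promoter drives Snai1, and the labels do not say whether the replicates were separate transductions. The groups address which changes follow wild-type Snai1 and whether they need the residue that contacts Lsd1.

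p53, encoded by Trp53, is a stress sensor that is made all the time and broken down by the ubiquitin ligase Mdm2, itself a p53 target, so that p53 and Mdm2 form a feedback loop. When DNA damage or another stress releases p53, it binds paired copies of a short consensus in its target genes and raises brakes on the cell cycle, DNA repair factors, death receptors and metabolic regulators. In blood progenitors p53 is known for limiting survival and for holding stem cells in a resting state. Much of its control acts on the protein, which RNA counts do not measure.

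Promoter sequence shows which of these genes carry the p53 consensus next to an annotated start site. RefSeq promoter windows on GRCm38.p6, from 250 bases before to 50 bases after a start site, were given for 26 of the 33 genes. The 10-base p53 consensus half-site, which reads the same on both strands, was found in the windows of 10 of these 26 genes (38.5%). Among all 27025 genes with a window, 2582 (9.55%) held it. A pair of half-sites with a spacer of at most 13 bases was found in 1 of the 26 genes, Cdkn1a, against 20 of all genes (0.074%). The 6 windows below are those of genes that passed the expression test described further on and held a match, and capitals mark the half-sites. They are Cdkn1a (chr17:29090729-29091028, plus strand), Mdm2 (chr10:117710709-117711008, minus strand), Ccng1 (chr11:40755237-40755536, minus strand), Ei24 (chr9:36797285-36797584, minus strand), Polk (chr13:96519138-96519437, minus strand) and Sesn1 (chr10:41887189-41887488, plus strand).
Cdkn1a: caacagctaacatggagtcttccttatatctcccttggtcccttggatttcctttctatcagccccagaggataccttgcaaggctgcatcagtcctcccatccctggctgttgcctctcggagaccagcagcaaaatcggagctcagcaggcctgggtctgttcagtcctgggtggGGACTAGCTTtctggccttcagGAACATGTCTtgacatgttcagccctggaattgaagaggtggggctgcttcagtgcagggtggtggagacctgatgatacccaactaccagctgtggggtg
Mdm2: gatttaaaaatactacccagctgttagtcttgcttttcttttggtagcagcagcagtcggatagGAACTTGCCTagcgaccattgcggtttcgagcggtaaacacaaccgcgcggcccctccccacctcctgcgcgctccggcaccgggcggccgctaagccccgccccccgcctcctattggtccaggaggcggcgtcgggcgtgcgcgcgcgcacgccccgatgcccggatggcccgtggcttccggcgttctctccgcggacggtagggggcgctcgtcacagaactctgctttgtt
Ccng1: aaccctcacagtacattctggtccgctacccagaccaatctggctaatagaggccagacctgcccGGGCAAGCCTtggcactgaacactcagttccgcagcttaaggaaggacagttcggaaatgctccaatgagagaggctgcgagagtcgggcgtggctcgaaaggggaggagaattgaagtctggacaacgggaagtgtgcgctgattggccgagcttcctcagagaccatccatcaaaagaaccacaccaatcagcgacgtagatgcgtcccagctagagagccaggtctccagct
Ei24: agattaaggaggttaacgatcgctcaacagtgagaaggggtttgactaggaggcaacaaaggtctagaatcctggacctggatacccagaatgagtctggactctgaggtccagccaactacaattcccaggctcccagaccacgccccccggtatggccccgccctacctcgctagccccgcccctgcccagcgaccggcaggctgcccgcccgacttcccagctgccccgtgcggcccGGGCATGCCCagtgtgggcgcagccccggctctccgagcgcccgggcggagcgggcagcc
Polk: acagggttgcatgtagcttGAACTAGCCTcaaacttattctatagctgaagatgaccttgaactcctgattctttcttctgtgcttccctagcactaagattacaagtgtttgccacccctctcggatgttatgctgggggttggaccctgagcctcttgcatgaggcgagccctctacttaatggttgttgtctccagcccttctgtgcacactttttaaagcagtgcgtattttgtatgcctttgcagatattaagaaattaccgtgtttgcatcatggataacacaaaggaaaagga
Sesn1: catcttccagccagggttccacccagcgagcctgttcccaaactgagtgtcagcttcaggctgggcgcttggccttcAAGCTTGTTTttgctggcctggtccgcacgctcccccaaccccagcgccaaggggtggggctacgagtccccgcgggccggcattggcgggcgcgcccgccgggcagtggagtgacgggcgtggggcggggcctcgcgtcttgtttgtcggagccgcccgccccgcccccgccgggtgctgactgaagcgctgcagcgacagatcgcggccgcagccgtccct
Cdkn1a is the only window of the list with paired half-sites, GGACTAGCTT and GAACATGTCT, and the first begins at position -73 from the start site. The half-site begins at -186 in Mdm2, at -185 in Ccng1, at -10 in Ei24, at -231 in Polk and at -173 in Sesn1. Some genes had more than 1 window, with 33 windows for the 26 genes. The windows of Polk and Sesn1 belong to start sites inside the gene. Polk spans chr13:96480687-96542579 and Sesn1 spans chr10:41810574-41908436. Trp53, Ppm1d, Gadd45a and Aen also held a match and did not pass the test of wild-type Snai1 against empty vector. Of the 13 genes with a window that were called higher with wild-type Snai1, 5 held the half-site, and so did 5 of the 13 others. Only exact matches to the consensus were marked, so half-sites with a differing base were passed over. In Cdkn1a the 10 bases right after GAACATGTCT, tgacatgttc, miss the consensus at their first base only. A match describes letters in a window and does not show that p53 binds there, and sites outside these windows were not searched.

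Snai1 counts matched the labels of vector and control, but counts do not show which Snai1 groups carried the substitution. Snai1 stood at 1.06, 0.722 and 0.698 CPM, the usual depth-scaled count on a TMM-scaled library size, with empty vector. It reached 425, 488 and 562 CPM with wild-type Snai1 and 471, 415 and 493 CPM with the mutant, values that include the vector's transcript. The 2 Snai1 groups overlapped, with a log2 change of 0.10 (SE 0.11, adjusted p = 0.479). Kdm1a, which encodes Lsd1, lay between 193 and 208 CPM in all 9 libraries. Libraries held 18332451 to 20860314 counts. In empty vector replicate 1, 1 gene without a symbol took 3.62% of all counts, against at most 1.02% for the leading gene elsewhere. In chi-square per degree of freedom over tested genes, wild-type replicate 1 stood apart from its partners, at 46.3 and 54.8 against 5.27 between replicates 2 and 3. Empty vector replicate 1 stood apart as well, at 71.6 and 69.7 against 4.9, or 20.8 and 22.7 without the gene of the highest count. Some results that rest on either library are given below with and without it, and others with all libraries only. Markers of the labelled cell type were present: summed progenitor markers (Kit, Gata2, Lmo2, Tal1 and others) lay at 7120 to 7330 CPM with empty vector, 7480 to 8990 CPM with wild-type Snai1 and 7150 to 7390 CPM with the mutant. Of these 10 progenitor markers, 3 were called higher and 3 lower with wild-type Snai1, beside 25.2% and 24.3% of all tested genes. Beside every wild-type result stands a large move of lineage genes: 8 monocyte and macrophage markers summed to 606 to 911 CPM with wild-type Snai1, against 93.5 to 112 CPM with empty vector and 85.3 to 101 CPM with the mutant. Of these 8, 6 were called higher and 2, Itgam and Fcgr1, lower. Neutrophil markers, mostly Mpo, summed to 4740 to 5330 CPM with empty vector and 5400 to 5730 CPM with the mutant. With wild-type Snai1 they summed to 1000 to 3200 CPM, with the lowest sum in replicate 1. Among the 4 tested neutrophil markers Mpo was lower, Lcn2 and Mmp8 were higher and Ltf did not pass. Mast cell and basophil markers, mostly Cpa3, summed to 2760 to 3130 CPM with empty vector, 3500 to 3800 CPM with wild-type Snai1 and 3090 to 3250 CPM with the mutant. Within that list Cpa3 was higher with wild-type Snai1, while Hdc and Gata1 were lower. Fibroblast markers, of which Pdgfrb made up nearly all, summed to 487 to 527, 320 to 427 and 455 to 476 CPM, and 3 of those 6 were at 0 in all libraries. Erythroid markers lay at 9.63 to 19.8 CPM and lymphoid markers at 0.351 to 1.73 CPM over all libraries, both lowest with wild-type Snai1. The part of these lineage changes in the p53 list was not tested. In such bulk samples, fewer cells of a type and less RNA per cell cannot be told apart.

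Wild-type Snai1 raised 15 of the 29 p53 target genes that had enough counts to test, where 25.2% of all tested genes rose, and lowered 3, where 24.3% of all genes fell. Calls rest on edgeR's quasi-likelihood test with p adjusted over 12484 genes and a threshold of 0.05. At a fitted change of at least 2-fold the contrast with the background was wider, with 10 of 29 members higher against 6.73% of all genes, and 1 member lower against 5.73%. The median log2 fold change was 0.55 over the 29 members and 0.00 over all tested genes, and 22 of the 29 lay above 0 (49.9% of all genes). The groups did not overlap for 16 members that were higher (28.1% of all genes) and 5 that were lower (28.5%). By role, the cell cycle brakes had the highest median, 1.23, with 5 of 6 tested genes higher. Death receptor and apoptosis genes followed with 0.59 and 4 of 7 higher, while the DNA repair genes had a median of -0.44, with 2 of 5 higher and 2 lower. Of the 15 rises, 14 were called whichever single library was left out, the exception being Ercc5 without empty vector replicate 1. Without that library 14 members were higher and 2 lower, with the median still at 0.55. The shares of all genes called in that fit are not given here, so these counts have no background beside them. Leaving out wild-type replicate 1 instead lowered the median, with Ercc5 as the middle member at 0.27. Trp53inp1 (-0.45), Pidd1 (-0.26), Sesn2 (-0.18), Apaf1 (-0.05) and Mdm4 (-0.01) then moved below 0. In log2 units the rises of Mdm2 (0.91), Ccng1 (0.88), Zmat3 (0.62) and Slc19a2 (0.97) then fell below 2-fold. Those of Cdkn1a, Plk3, Sertad1, Eda2r, Phlda3 and Gdf15 stayed above it.

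**Figure D1:**
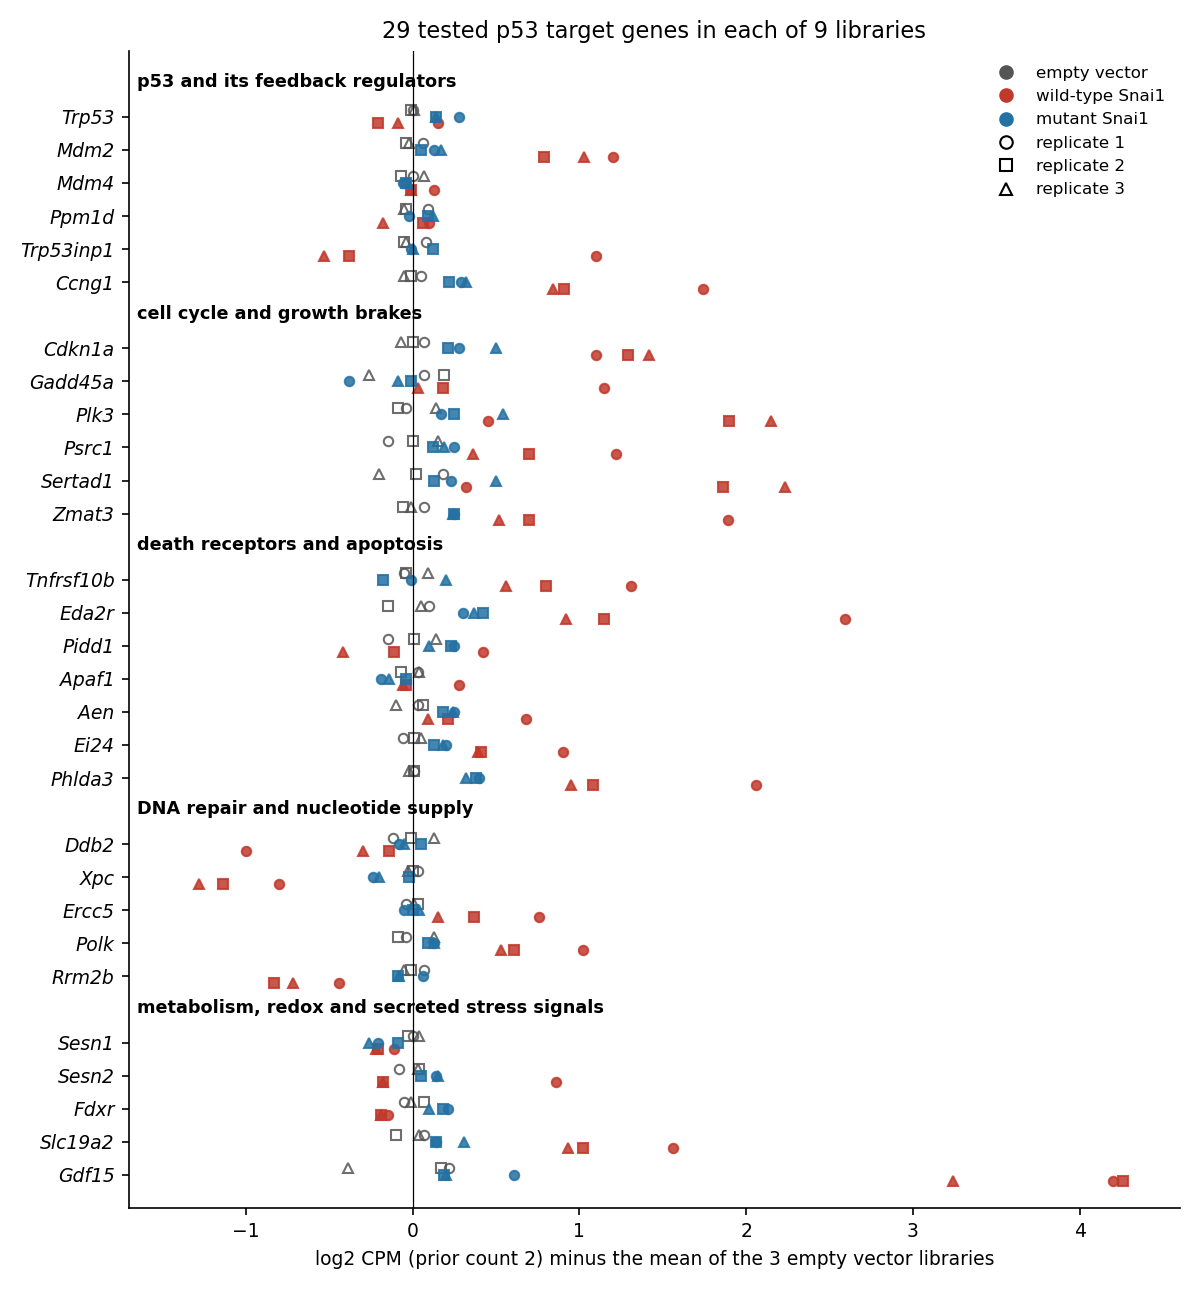
Each of the 29 tested p53 target genes in each library, as log2 CPM (prior count 2) minus the mean of the 3 empty vector libraries, grouped by role. Grey open symbols are empty vector, red wild-type Snai1 and blue mutant Snai1, and the shape gives the replicate. Red circles, wild-type replicate 1, are the highest wild-type value for most genes, and Xpc and Rrm2b lie to the left of 0 in every wild-type library.

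The other 4 members could not be tested. Plk2 (a kinase of the centrosome cycle), Fas (the classical death receptor) and Dcxr (a sugar reductase) had 0 counts in all 9 libraries. Perp, a membrane protein of p53-driven death, had 1 count in all, in mutant replicate 2. A level of 3 counts, which a count of 0 still allows, corresponds to 0.144 to 0.161 CPM. Whether reads of these genes were lost in the counting was not tested.

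Trp53 itself did not pass the test with wild-type Snai1, while its antagonist Mdm2 rose 2.02-fold. Trp53 (chromosome 11, 69580348 to 69591873 on GRCm38) was at 222, 221 and 224 CPM with empty vector, 246, 193 and 209 CPM with wild-type Snai1 and 270, 244 and 244 CPM with the mutant. The wild-type libraries lay on both sides of the control, with a log2 change of -0.04 (SE 0.08, adjusted p = 0.7), and without wild-type replicate 1 the value was -0.14 (adjusted p = 0.0345). All mutant libraries lay above all control libraries, by 0.19 in log2 units (SE 0.08, unadjusted p = 0.0489, adjusted p = 0.98).

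Mdm2, the ubiquitin ligase that removes p53 (chromosome 10, 117688875 to 117710758), was at 144, 134 and 137 CPM with empty vector. It rose to 318, 239 and 282 CPM with wild-type Snai1 and stood at 151, 144 and 156 CPM with the mutant. Every wild-type library was above every other library, and the mutant overlapped the control. The means were 138 ± 4.95, 279 ± 39.5 and 150 ± 6.31 CPM (SD, n = 3), a 2.02-fold rise with wild-type Snai1 (log2 fold change 1.01, SE 0.09, adjusted p = 1.03e-05). The mutant differed from the control by 0.12 (SE 0.09, adjusted p = 0.998). Mdm4, the relative of Mdm2 that blocks the activity of p53, did not pass the test in any comparison. It read 152, 145 and 160 CPM with empty vector, 166, 151 and 151 CPM with wild-type Snai1 and 147, 149 and 149 CPM with the mutant. Its wild-type log2 fold change was 0.03 (SE 0.06, adjusted p = 0.638).

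Ccng1, encoding cyclin G1, which acts with a phosphatase on Mdm2, showed a rise in all wild-type libraries and a smaller shift with the mutant. It was at 301, 289 and 281 CPM with empty vector, 972, 547 and 520 CPM with wild-type Snai1 and 355, 338 and 363 CPM with the mutant. The 3 groups did not overlap, and wild-type replicate 1 was far above the other two. The wild-type log2 fold change was 1.23 (SE 0.21, adjusted p = 0.00136) and became 0.88 (adjusted p = 4.58e-10) without that library. Trp53inp1, a p53 partner that also acts in autophagy, depended on that library. It read 230, 210 and 211 CPM with empty vector, 467, 167 and 150 CPM with wild-type Snai1 and 216, 237 and 217 CPM with the mutant. Replicate 1 was above the control range and replicates 2 and 3 were below it, so that the log2 change of 0.27 (SE 0.40, adjusted p = 0.608) became -0.45 (adjusted p = 8.38e-06) without replicate 1. Ppm1d, a phosphatase that switches the p53 response off, ranged from 34.3 to 42.3 CPM over all libraries, with adjusted p values of 0.966 for wild-type Snai1 and 0.999 for the mutant.

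**Figure D2:**
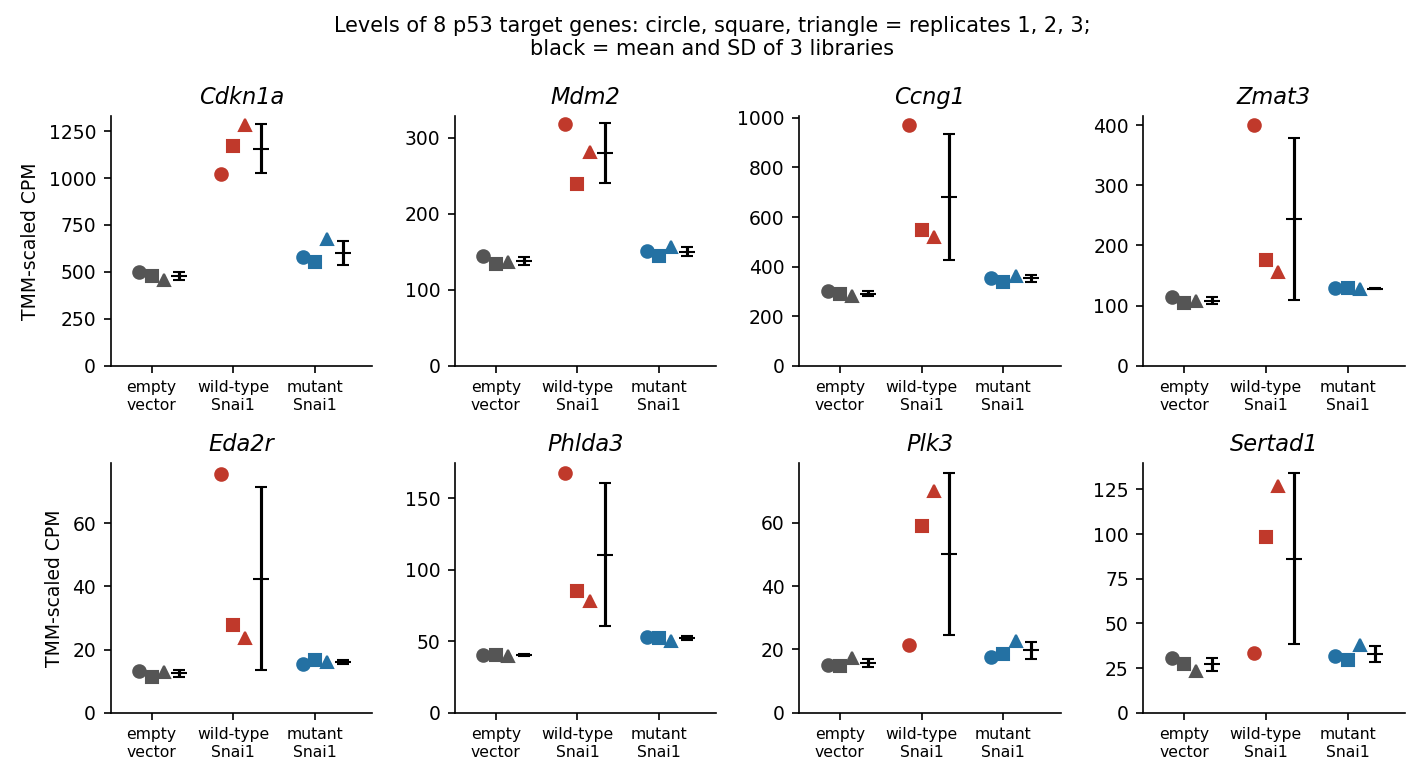
TMM-scaled CPM of Cdkn1a, Mdm2, Ccng1, Zmat3, Eda2r, Phlda3, Plk3 and Sertad1 in each library, on linear axes from 0, with circle, square and triangle for replicates 1, 2 and 3 and black marks for the mean and SD of 3 libraries. Wild-type replicate 1 is the highest library for Mdm2, Ccng1, Zmat3, Eda2r and Phlda3 and the lowest wild-type library for Cdkn1a, Plk3 and Sertad1.

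In the list of cell cycle and growth brakes, 5 of 6 tested genes rose with wild-type Snai1: Cdkn1a, Plk3, Psrc1, Sertad1 and Zmat3. Sertad1 is not a brake by its known function, and Psrc1 is known for its part in the spindle. Cdkn1a encodes the cyclin-dependent kinase inhibitor p21. Cdkn1a (chromosome 17, 29090979 to 29100722) was at 498, 476 and 454 CPM with empty vector, 1020, 1170 and 1280 CPM with wild-type Snai1 and 580, 552 and 673 CPM with the mutant. The 3 groups did not overlap: the mutant libraries lay between the control and the wild-type libraries. The means were 476 ± 22.1, 1150 ± 127 and 601 ± 63.3 CPM (SD, n = 3), a 2.43-fold rise with wild-type Snai1 (log2 fold change 1.28, SE 0.09, adjusted p = 2.84e-06). Per kilobase of gene length it was the most abundant member in all groups, at 235, 570 and 297 CPM per kilobase, above Trp53 at 119, 116 and 135. With wild-type Snai1, Ccng1 lay between Cdkn1a and Trp53, at 195 CPM per kilobase.

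Plk3, a stress-responsive polo-like kinase, and Sertad1, an E2F coactivator that favours division rather than braking it, shared another order of libraries. Plk3 was at 15.2, 14.7 and 17.2 CPM with empty vector, 21.4, 58.9 and 70.1 CPM with wild-type Snai1 and 17.7, 18.7 and 22.8 CPM with the mutant. Sertad1 was at 30.5, 27.4 and 23.4 CPM, then 33.7, 98.2 and 127 CPM, then 31.7, 29.5 and 38.2 CPM in the same order. In both genes wild-type replicate 1 lay above every control library but within the range of the mutant, and replicates 2 and 3 lay far higher. The log2 rise was 1.68 for Plk3 (SE 0.38, adjusted p = 0.00654) and 1.67 for Sertad1 (SE 0.42, adjusted p = 0.0116). Without wild-type replicate 1 these became 2.04 and 2.05. Reads of Plk3 are uncertain, since it overlaps Tctex1d4 and the strand setting of the counting is not given in the sources used here.

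Zmat3, a zinc finger protein that binds RNA, and Psrc1, a spindle protein, rose with the opposite order of wild-type libraries. Zmat3 was at 114, 104 and 107 CPM with empty vector, 400, 176 and 156 CPM with wild-type Snai1 and 129, 129 and 127 CPM with the mutant. All groups were separate, and replicate 1 was more than 2-fold above the other wild-type libraries. The log2 change of 1.17 (SE 0.32, adjusted p = 0.017) became 0.62 (adjusted p = 1.17e-07) without replicate 1, and with no filter on low counts the adjusted p was 0.0505. Zmat3 overlaps 4930429B21Rik. Psrc1 was at 54.9, 60.9 and 67.5 CPM, then 142, 99.1 and 78.1 CPM, then 72.4, 66 and 69.4 CPM, with a log2 change of 0.80 (SE 0.18, adjusted p = 0.00561). Its wild-type libraries lay above all others. Gadd45a, a DNA damage-inducible growth arrest gene that overlaps E230016M11Rik, was at 1.53 to 2.31 CPM in 6 control and mutant libraries. With wild-type Snai1 it read 4.58, 2.3 and 2.06 CPM, so only replicate 1 was high, and the test was not passed (adjusted p = 0.164).

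Both tested receptor genes in the list of death receptors and apoptosis rose. Eda2r, a receptor of the tumour necrosis factor family (chromosome X, 97333837 to 97377234), was at 13.3, 11.2 and 12.9 CPM with empty vector. It was at 75.7, 27.8 and 23.7 CPM with wild-type Snai1 and 15.4, 16.7 and 16.1 CPM with the mutant. The 3 groups were separate, with replicate 1 far above. Its log2 fold change was 1.77 (SE 0.41, adjusted p = 0.00789), and 1.05 (adjusted p = 1.74e-07) without replicate 1. Tnfrsf10b, the mouse receptor of the death ligand TRAIL, was at 8.93, 8.96 and 9.82 CPM, then 23, 16.2 and 13.7 CPM, then 9.17, 8.13 and 10.6 CPM. All wild-type libraries were higher than all others, with a log2 change of 0.93 (SE 0.18, adjusted p = 0.00171), and the mutant overlapped the control at 0.01.

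Phlda3, which restrains Akt signalling, and Ei24, a membrane protein of the endoplasmic reticulum with a part in autophagy, rose as well. Phlda3 was at 40.7, 40.6 and 39.8 CPM with empty vector, 168, 85.5 and 77.9 CPM with wild-type Snai1 and 53.2, 52.6 and 50.4 CPM with the mutant. The 3 groups did not overlap, and the spread was 0.52 CPM in the control and 1.45 CPM in the mutant (SD, n = 3). The wild-type log2 fold change was 1.45 (SE 0.26, adjusted p = 0.0017), or 1.02 (adjusted p = 6.78e-10) without replicate 1. Ei24 went from 108, 114 and 117 CPM to 211, 150 and 148 CPM with wild-type Snai1, with 130, 123 and 128 CPM in the mutant. Its groups were also all separate, and the wild-type log2 fold change was 0.59 (SE 0.12, adjusted p = 0.00246). Aen, Apaf1 and Pidd1 did not pass the test. Aen, an apoptosis-linked nuclease, was at 50.8, 52 and 46.5 CPM with empty vector and 79.6, 57.4 and 52.8 CPM with wild-type Snai1, above all controls, with an adjusted p of 0.0505, and it passed in 5 of 18 alternative fits. The mutant libraries of Aen, at 59.3, 56.4 and 58.7 CPM, also lay above all controls and overlapped the wild type. Apaf1, the core of the apoptosome, ranged from 107 to 147 CPM over all libraries (adjusted p = 0.553), and it overlaps Ikbip. Pidd1, which builds a caspase-2 platform, read 82.1, 57 and 45.8 CPM with wild-type Snai1 around control values of 55.1, 61.9 and 67.8 CPM. It read 73.1, 72.3 and 65.8 CPM with the mutant. The wild-type log2 fold change of Pidd1, 0.00 (adjusted p = 0.998), became -0.26 (adjusted p = 0.0392) without wild-type replicate 1.

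The DNA repair genes did not move together. Xpc, which recognises bulky lesions for nucleotide excision repair (chromosome 6, 91489305 to 91515888), was at 116, 113 and 111 CPM with empty vector. It fell to 65.1, 51.5 and 46.8 CPM with wild-type Snai1 and was at 96.5, 112 and 98.6 CPM with the mutant. All wild-type libraries were below all others, and the log2 fold change was -1.06 (SE 0.11, adjusted p = 2.79e-05). Rrm2b, the p53-inducible subunit of ribonucleotide reductase, went from 17.5, 16.6 and 16.1 CPM to 12.3, 9.35 and 10.1 CPM, with 17.4, 15.7 and 15.8 CPM in the mutant. Its wild-type libraries were also the lowest, with a log2 change of -0.66 (SE 0.11, adjusted p = 0.000727). Polk, a DNA polymerase that bypasses lesions, rose in contrast. It went from 35, 33.9 and 39.4 CPM to 73.2, 55.1 and 51.9 CPM, and the mutant at 39.5, 38.4 and 39.4 CPM overlapped the control. Its wild-type log2 fold change was 0.73 (SE 0.12, adjusted p = 0.000571). Ercc5, the 3′ nuclease of excision repair, rose from 33.6, 35.1 and 34.6 CPM to 58.3, 44.6 and 38.2 CPM, with 33.3, 34.5 and 35.5 CPM in the mutant. The log2 change of 0.45 (SE 0.13, adjusted p = 0.0142) was 0.27 without wild-type replicate 1, and the adjusted p was 0.0552 without empty vector replicate 1. Ddb2, the partner of Xpc in damage recognition, read 23.7, 25.6 and 28.2 CPM with empty vector and 12.8, 23.3 and 20.9 CPM with wild-type Snai1. With the mutant it read 24.3, 26.7 and 24.8 CPM. All wild-type libraries were lower than the controls, at -0.44 in log2 units (SE 0.18, adjusted p = 0.069). Ddb2 passed in 6 of 18 alternative fits, among them those without wild-type replicate 1 (-0.22) or 2 (-0.61), and it overlaps Acp2.

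Among the metabolic and secreted members, Gdf15 showed the largest ratio. Gdf15, a secreted stress hormone of the TGF-beta family, had 1, 1 and 0 counts with empty vector. It had 47, 50 and 23 counts with wild-type Snai1 and 2, 1 and 1 counts with the mutant. The control was close to silent, so the ratio of wild type to control, 57.8, has a wide 95% counting interval of 15.6 to 483. The mutant ratio of 1.97 has an interval of 0.282 to 21.7, which includes no change, and both intervals cover counting error only. The adjusted p for wild-type Snai1 was 2.79e-05. Slc19a2, the high-affinity thiamine transporter, went from 47.2, 42 and 46.2 CPM to 133, 91.2 and 85.8 CPM, with 49.8, 49.6 and 55.8 CPM in the mutant. Its groups were separate, and the wild-type log2 fold change was 1.19 (SE 0.15, adjusted p = 0.00013). The sestrins, which dampen mTORC1 signalling, did not rise. Sesn1 was at 63.5, 62.2 and 65.3 CPM with empty vector, 59, 55.1 and 54.6 CPM with wild-type Snai1 and 55, 59.8 and 53.1 CPM with the mutant. Both Snai1 groups lay below the control, and the wild-type log2 fold change was -0.18 (SE 0.06, adjusted p = 0.0405). That call was lost in 6 of the 9 fits without a library, namely without any of the control libraries, wild-type replicate 2 or 3, or mutant replicate 1, with adjusted p up to 0.146. It was also lost with RLE scaling, 2 groups only, DESeq2 and a replicate block, at 0.0526 to 0.0668. Sesn2 was at 115, 56 and 56.1 CPM with wild-type Snai1, against 60, 65.3 and 64.8 CPM in the control and 69.6, 65.5 and 70.2 CPM in the mutant. Of the wild-type libraries only replicate 1 was high. The wild-type log2 fold change of 0.26 (adjusted p = 0.427) became -0.18 (adjusted p = 0.0224) without that library. Fdxr, the mitochondrial ferredoxin reductase, read 22.3, 24.3 and 23 CPM with empty vector, 20.8, 20.4 and 20.3 CPM with wild-type Snai1 and 26.7, 26.2 and 24.8 CPM with the mutant. The control lay between the Snai1 groups without overlap, and the wild-type log2 fold change was -0.18 (SE 0.07, adjusted p = 0.0606).

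Wild-type replicate 1 differed from its 2 partners within the p53 list. It was the highest wild-type library for 24 of the 29 tested members, against 42.9% of all tested genes. It exceeded both other libraries at least 1.5-fold for 7 members (4.57% of all genes): Trp53inp1, Ccng1, Gadd45a, Zmat3, Eda2r, Phlda3 and Sesn2. It was lower by as much for 3 members (7.83% of all genes), Plk3, Sertad1 and Ddb2. The median member stood 0.86 above the control mean in replicate 1, 0.37 in replicate 2 and 0.15 in replicate 3 on the log2 CPM scale. A list of immediate-early and stress genes (Fos, Jun, Egr1 and others) took the opposite order, with medians of 0.11, 2.07 and 2.57. Without replicate 1, wild-type Snai1 still gave 15 members higher (29.9% of all genes), while the number lower went from 3 to 8 (29.0% of all genes). The 5 added were Trp53, Trp53inp1, Pidd1, Ddb2 and Sesn2.

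**Figure D3:**
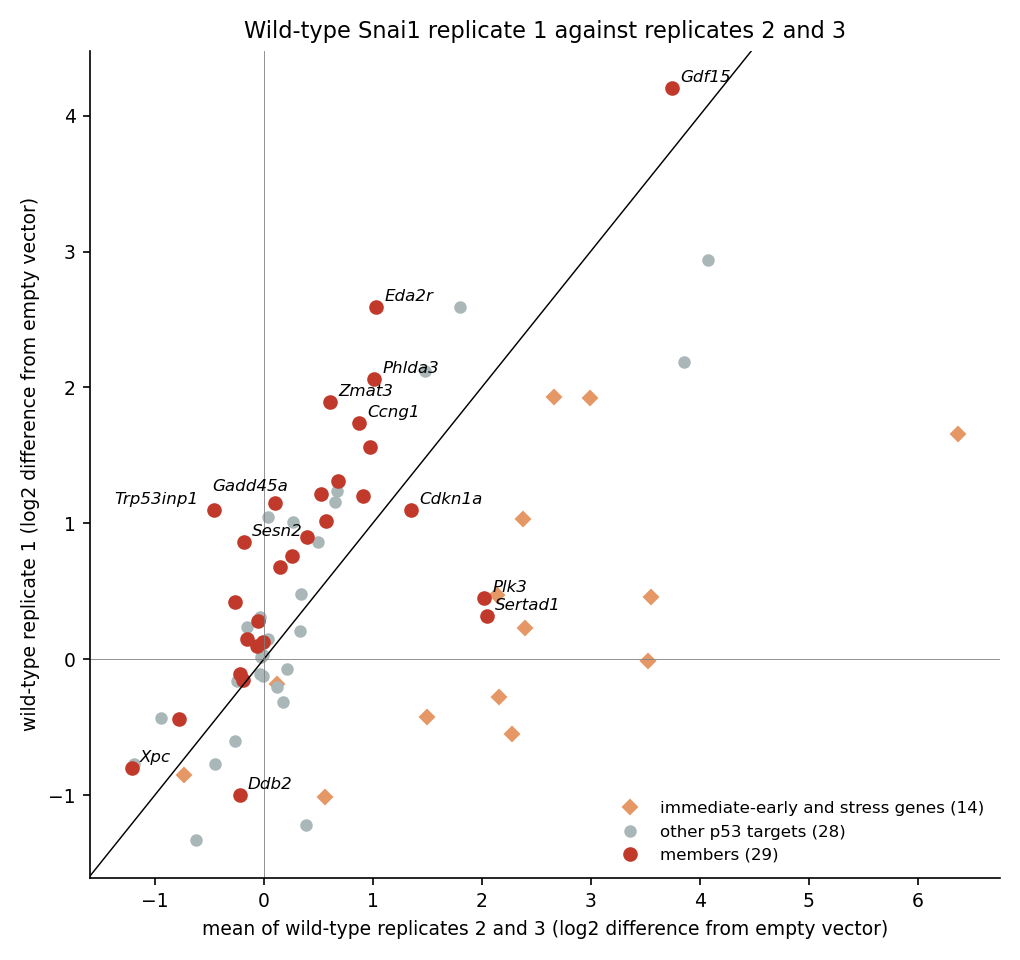
Wild-type replicate 1 (vertical) against the mean of wild-type replicates 2 and 3 (horizontal), each as the log2 difference from the empty vector mean, for 29 p53 members in red, 14 immediate-early and stress genes as orange diamonds and 28 other p53 targets in grey. The line marks equality. Zmat3, Eda2r, Phlda3 and Trp53inp1 lie above it, Plk3 and Sertad1 lie below it with most of the diamonds, and Cdkn1a and Gdf15 lie near it.

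With mutant Snai1 none of the 29 members passed the test, where 1 of all 12484 genes (0.00801%), Snai1 itself, did. The median log2 fold change was 0.16, against 0.00 over all genes, and 22 of 29 lay above 0 (48.1% of all genes). The median member was 0.14, 0.12 and 0.15 above the control mean in the 3 mutant libraries, and 0.03, -0.01 and 0.01 in the 3 control libraries. For 12 members every mutant library was above every control library, where 8.53% of all genes showed this. These were Trp53, Ccng1, Cdkn1a, Plk3, Zmat3, Eda2r, Aen, Ei24, Phlda3, Sesn2, Fdxr and Slc19a2. In the other direction there was 1 member, Sesn1 (9.04% of all genes). At an unadjusted p under 0.05, 3 members were higher (2.24% of all genes), Trp53, Cdkn1a and Fdxr, and 1 was lower (2.59%), Sesn1. DESeq2 called 0 members (0.0481% of all genes higher and 0.032% lower), and so did limma-voom (0.016% higher).

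The sizes were small. Cdkn1a was higher with the mutant by 0.34 in log2 units (SE 0.09, unadjusted p = 0.0046, adjusted p = 0.98). Phlda3 was higher by 0.37 (SE 0.26, adjusted p = 0.998) and Ccng1 by 0.28 (SE 0.21, adjusted p = 0.998). For these genes the shared estimate of the spread held the wide wild-type group. When the fit held the 2 groups alone, the SE was 0.06 for Phlda3 and 0.05 for Ccng1, and both were called, with adjusted p of 0.00896 and 0.0214, among 0.104% of all genes called higher (0.136% lower). Leaving out wild-type replicate 1 gave 3 calls (0.224% of all genes higher, 0.272% lower): Phlda3, Ccng1 and Zmat3, with adjusted p of 0.00997, 0.021 and 0.0475. For Cdkn1a the same 2 fits gave 0.0588 and 0.0507.

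**Figure D4:**
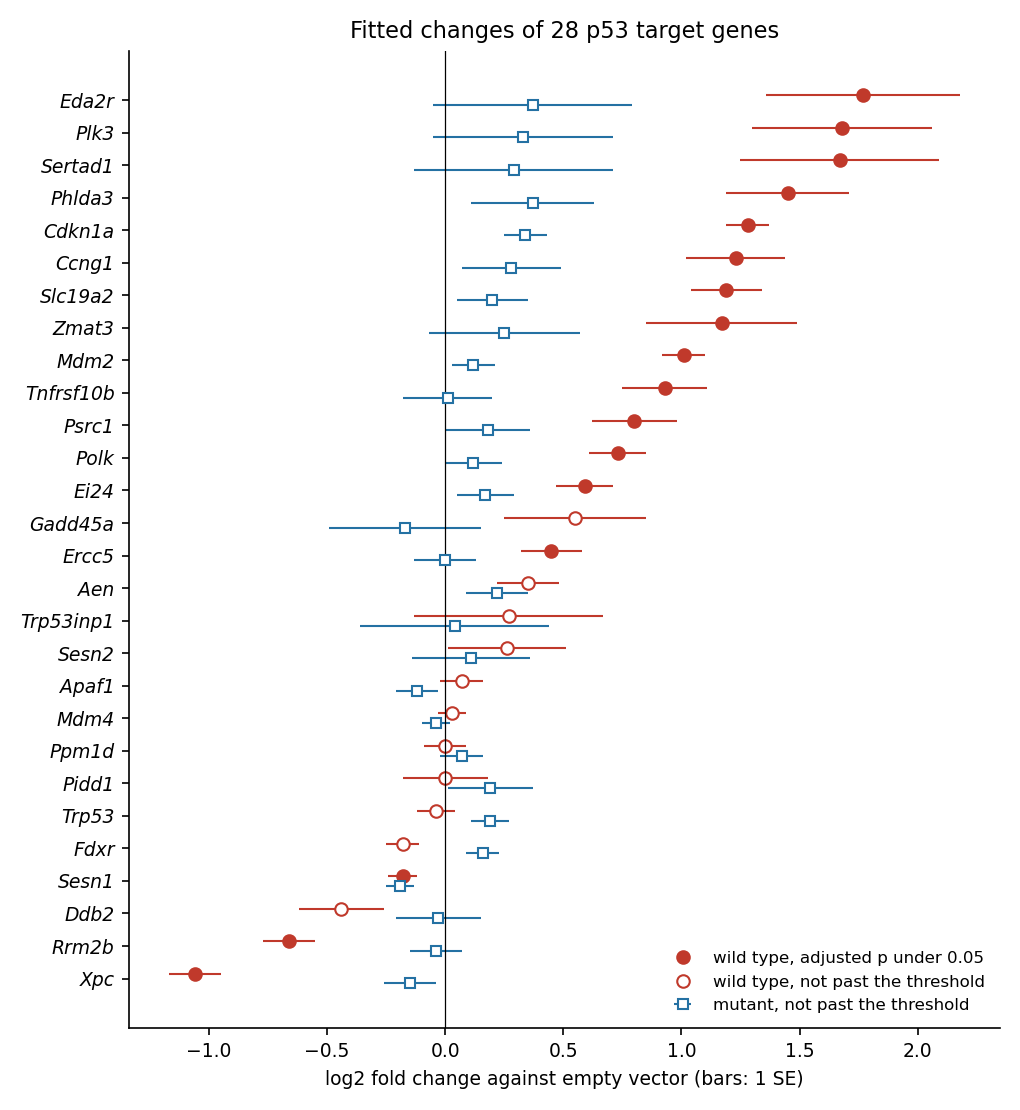
Fitted log2 fold change against empty vector with 1 SE, for 28 tested members (Gdf15 is left out because its control counts are near 0), with wild-type Snai1 as red circles, filled where the adjusted p was under 0.05, and mutant Snai1 as blue open squares, none of which passed. The wild-type values run from -1.06 for Xpc to 1.77 for Eda2r, and the highest mutant value is 0.37.

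The direct test of wild-type against mutant Snai1 gave the same 15 members higher with wild type (24.5% of all genes) that were higher against empty vector. It gave 4 lower (23.4%): Trp53, Xpc, Rrm2b and Fdxr. The median difference was 0.45 over the members and -0.01 over all genes, and 5 members were at least 2-fold higher (6.62% of all genes). Cdkn1a was 0.94 higher in log2 units (SE 0.09, adjusted p = 2.31e-05) and Mdm2 0.89 higher (SE 0.09, adjusted p = 2.54e-05). Slc19a2 was 1.00 higher (SE 0.15, adjusted p = 0.000409) and Polk 0.62 higher (SE 0.12, adjusted p = 0.00171). Phlda3 differed by 1.09 (SE 0.26, adjusted p = 0.00762), Ccng1 by 0.95 (SE 0.21, adjusted p = 0.00537) and Tnfrsf10b by 0.92 (adjusted p = 0.00191). Gdf15 passed with an adjusted p of 4.19e-05. These 8 members were called higher in every fit tried.

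The other 7 rises over the mutant were less firm, each with at least 1 left-out library that ended the call. Zmat3 (adjusted p = 0.0436) lost it in 5 of 9 such fits, without empty vector replicate 2 or 3 or any mutant library. Sertad1 (0.0255) lost it in 4, without wild-type replicate 2 or 3 or mutant replicate 1 or 2. Zmat3 was also lost with upper-quartile scaling, library totals alone, no filter on low counts, a replicate block and 2 groups only, at 0.0562 to 0.107. Sertad1 was also lost with no filter (0.0671) and with the block (0.0577). Plk3 (0.0172) lost it without wild-type replicate 2 or mutant replicate 1, Psrc1 (0.0198) without mutant replicate 2 or 3, and Eda2r (0.0211) without mutant replicate 1 or 3. With no filter Plk3, Psrc1 and Eda2r were at 0.05, 0.0532 and 0.0601. Ei24 (0.015) lost it without mutant replicate 2 and Ercc5 (0.0147) without mutant replicate 1, with a highest adjusted p per gene of 0.054 to 0.0962. Among the lower genes, Xpc at -0.91 (SE 0.11, adjusted p = 8.5e-05), Rrm2b at -0.62 (adjusted p = 0.00109) and Fdxr at -0.34 (SE 0.07, adjusted p = 0.00287) held in every fit. Fdxr is the member for which the wild-type and mutant groups lay on opposite sides of the control. Trp53 differed by -0.23 (log2, SE 0.08, adjusted p = 0.0441) with overlapping groups. That call was lost in 8 of 9 fits without a library, with adjusted p from 0.0584 to 0.161, and became -0.33 (adjusted p = 8.76e-05) without wild-type replicate 1. Sesn1, lower in both Snai1 groups, differed between them by 0.01 (adjusted p = 0.952). Without wild-type replicate 1, 15 members were higher than with the mutant (29.7% of all genes) and 7 lower (28.4%). The wild-type and mutant libraries did not overlap for 15 members that were higher (27.5% of all genes) and 4 that were lower (28.3%). Both comparisons with empty vector share the same control libraries.

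The wider p53 pathway held both rises and falls. Of 36 other p53 targets, 28 could be tested, and 10 were higher and 6 lower with wild-type Snai1, with a median of 0.06 against 0.00 for all genes. Over all genes 25.2% were higher and 24.3% lower, so neither count is far from the background. Bax, which permeabilises mitochondria, went from 91.9, 99.7 and 95.5 CPM to 214, 163 and 140 CPM, with 112, 98.5 and 104 CPM in the mutant. All wild-type libraries were above all others, with a log2 change of 0.85 (SE 0.13, adjusted p = 0.000499). Ak1, an adenylate kinase, was higher by 2.12 (adjusted p = 5.44e-05) and Btg2, an antiproliferative cofactor, by 3.50 (adjusted p = 0.000471). Btg2 read 52.3, 144 and 193 CPM in the wild-type libraries, in the same order as Plk3 and Sertad1. Bid, a death agonist of the Bcl2 family, fell from 129, 123 and 126 CPM to 73.6, 53 and 57.4 CPM (log2 fold change -1.04, SE 0.10, adjusted p = 2.09e-05). The BH3-only killer Bbc3 was high in 1 wild-type library, at 66.1, 30.9 and 34.6 CPM against 35.9, 33.5 and 26.6 CPM (adjusted p = 0.187). Pmaip1, another of that class, had 1 count in all libraries together and was not tested.

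Upstream of p53, 3 of 28 tested kinases, partners and modifiers were higher and 9 lower with wild-type Snai1, beside 25.2% and 24.3% of all genes, with a median of -0.09. Cdkn2a, whose Arf product inhibits Mdm2, fell from 31, 31.9 and 29.1 CPM to 21.2, 17.8 and 18.1 CPM and was at 35.3, 30.1 and 34 CPM with the mutant. Its wild-type libraries were the lowest, with a log2 change of -0.69 (SE 0.09, adjusted p = 0.000174). Counts per gene do not separate Arf from the other product of that locus. Prkdc, the catalytic subunit of DNA-dependent protein kinase, was at -0.42 (adjusted p = 0.000352) and the p53 deubiquitinase Usp10 at -0.34 (adjusted p = 0.000479). Ppp1r13b, a p53 cofactor, was at 0.33 (adjusted p = 0.000407).

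Downstream of p21, cell cycle genes known to be repressed through the DREAM complex were mostly not called. Of 22, 6 were higher (25.2% of all genes) and 1 lower (24.3%) with wild-type Snai1, and the median was 0.04, so the rises are near the background. Among those called higher were Ccne2 at 0.99 (adjusted p = 0.000421), Birc5 at 0.49 (0.00622) and Ccna2 at 0.39 (0.0155). Ccne2 overlaps Ints8. By library the medians of this list were -0.25, 0.16 and 0.17 in wild-type replicates 1, 2 and 3. The median of this list was thus lowest in replicate 1, while most p53 members were highest there. Cdkn1a, which encodes p21, was lowest in replicate 1 among the wild-type libraries, at 1020 CPM against 1170 and 1280 CPM. A link between these orders was not tested.

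Stress genes outside the p53 list also moved with wild-type Snai1, and their part in the p53 list was not tested. Of 14 tested immediate-early genes 8 were higher (25.2% of all genes) and 1, Myc, was lower (24.3%), with a median of 1.90. Jun rose from 56, 46.5 and 37.4 CPM to 175, 250 and 340 CPM (log2 fold change 2.45, SE 0.26, adjusted p = 0.00011), with 48.2, 42.6 and 62.5 CPM in the mutant. Fosb was at 2.81 (adjusted p = 0.000283), Dusp1 at 2.09 (adjusted p = 0.00117) and Myc at -0.77 (adjusted p = 1.01e-05). In the list of Atf4 and unfolded protein response genes, 8 of 17 were higher and 2 lower against the same background, with a median of 0.36. Ddit4 was at 1.28 (adjusted p = 6.03e-06), Cebpb at 3.38 (adjusted p = 0.000102), Slc7a11 at 0.96 (adjusted p = 0.000186) and Cebpg at -1.25 (adjusted p = 1.31e-07). Sesn2 belongs to both this list and the p53 members. With the mutant, 0 genes of these 5 lists passed the test.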

How the data were processed

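RNA of GFP-positive HPC7 cells was extracted with a Qiagen RNeasy kit and made into TruSeq stranded mRNA libraries, per the labels' protocols. The authors deposited raw read counts for each gene, made with featureCounts on mm10, per the submitters' processing notes, which also list edgeR 3.15.0 and limma 3.29.12. Not given in the sources used here are the aligner, the annotation, the strand setting and the featureCounts version. Gene identifiers were matched to RefSeq on GRCm38.p6, which named 25275 of 27179.

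Counts were analysed in R 4.3.3 with edgeR 4.0.16. Low counts were removed with filterByExpr, TMM scaled the library sizes, and 1 robust quasi-likelihood fit held all 9 libraries. P-values were adjusted over 12484 genes by the Benjamini-Hochberg method and called under 0.05. CPM used the scaled library size, the SE of a fold change was taken from the test statistic, and log2 CPM used a prior count of 2. The test was also run on simulated data. These gave every library of a gene the same spread, so they do not cover outlying libraries such as wild-type replicate 1.

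Trp53, Mdm2, Mdm4, Cdkn1a and up to 10 called members with the smallest adjusted p in each comparison were given in full, with others by library or range. From every other list the 4 genes with the smallest adjusted p were named, with Bax, Bbc3 and Pmaip1 added; 1 gene that this rule names is not reported here. Other genes were named after their values were seen. The members, roles and lists were chosen with earlier results of these data known. Nothing in the labels ties replicates to separate cultures, so p-values measure only the spread between libraries and this spread may be technical. Alternatives were RLE and upper-quartile scaling, library totals, other filters, a replicate block, 2 groups only, DESeq2 1.42.0, limma-voom (limma 3.58.1) and each library left out.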

Additional observations from a re-analysis of the deposited data

How the results depend on the processing

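Over all tested members and alternatives, 1487 of the refitted values kept their side of the threshold, 50 lost the call, 23 gained it and 5 changed sign and were called. Values called in neither fit could change sign and are among the 1487. The 5 called reversals came without wild-type replicate 1. With each library left out in turn, log2 changes against empty vector ran from -0.45 to 0.56 for Trp53inp1, -0.18 to 0.45 for Sesn2 and -0.26 to 0.19 for Pidd1. Against the mutant they ran from -0.5 to 0.51 for Trp53inp1 and -0.29 to 0.33 for Sesn2. The number of members higher with wild-type Snai1 was within 1.5 times its value of 15 in every alternative. The number lower was 3 and became 5 with upper-quartile scaling, 5 with library totals alone and 2 to 8 with a library left out, and against the mutant it went from 4 to between 3 and 7. Both highest values came without wild-type replicate 1. In the mutant comparison, genes called went from 1 to 30 with 2 groups only, 10 with DESeq2, 2 with limma-voom and between 1 and 62 with a library left out. The largest number came without wild-type replicate 1, and without wild-type replicate 2 there were 2. Members higher in that comparison went from 0 to 2 with 2 groups only and to 3 without wild-type replicate 1. Their median of 0.16 became 0.18 with library totals alone, 0.14 with 2 groups only and 0.12 to 0.18 with a library left out. What a replicate number marks is not in the labels. Libraries of the same number correlated at -0.0873 to 0.21 after removal of group means, with 2 of 9 pairs above 0.1, and 4 of 9 libraries correlated best with their own number, so the numbers were not treated as pairs. With the replicate number as a block, 16 members were higher and 3 lower with wild-type Snai1, 0 and 0 with the mutant, and 13 and 5 in wild type against mutant. Shares of all genes called are not given here for the block fit or for the other scalings. The member counts of those fits therefore have no background beside them. The block ended the calls of Sesn1 against empty vector (adjusted p = 0.0668) and of Sertad1 (0.0577) and Zmat3 (0.0591) against the mutant, and added Aen and Ddb2. Causes of these shifts were not tested. With 18332451 to 20860314 counts per library, counts were fewest for Gdf15 and Gadd45a among tested members.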
